A study of Sus scrofa with 24 samples.

Results

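The genes of the circadian clock were examined in porcine aortic valve leaflets kept in culture with or without cyclic stretch. A list of 10 circadian clock genes was searched in the array's platform annotation. Every probe set with exactly 1 symbol that was on the list was taken. The search found 5 probe sets of 4 genes, among 23999 probe sets other than controls. The genes were PER1 (2 probe sets), CRY2, ARNTL and NFIL3 (1 probe set each). PER2, PER3, CRY1, CLOCK, NR1D1 and NR1D2 had no probe set under their symbol here and were not analysed.

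The clock of mammalian cells is a loop in which the transcription factors CLOCK and BMAL1, the product of ARNTL, switch on the period and cryptochrome genes, whose proteins then return to the nucleus and block that switch. Attached loops set the level of ARNTL through nuclear receptors, and output factors such as NFIL3 and DBP pass the rhythm on to genes outside the clock. Cells of peripheral tissues keep their own clocks, and in cultured cells serum, glucocorticoids and signals that raise cyclic AMP can reset them, with PER1 among the genes that answer such signals early.

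The leaflets came from domestic pigs of 12 to 24 months. A piece of 15 by 10 mm was cut from the middle of each cusp and kept for 24 h at 37 °C in medium with 10% fetal bovine serum. Of 24 pieces, 6 were stretched cyclically in a tensile bioreactor with 5HT (serotonin) plus Fluox, 6 were stretched with no agents, 6 stayed static with 5HT plus Fluox, and 6 stayed static with no agents. Stretched pieces had loops sutured into their ends, which the account of the static pieces does not mention, and the agents were always given together, at doses that the labels do not state. All pieces were collected after the same time in culture, so the arrays hold a single time point, and no phase or period of a rhythm can be read from them. The labels call the 6 arrays of a group biological replicates. The cusps of each valve were distributed at random, so some pieces of different groups may stem from the same animal, and the labels do not tell which. Values below are the authors' GCRMA values in log2 units, with the SD over 6 arrays, and changes are log2 differences from 1 limma fit of the 4 group means with their standard error (SE). A change was called at an adjusted p under 0.05 (Benjamini-Hochberg over all 23999 probe sets). The number of arrays limits the precision of every value.

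The tissue carried markers of interstitial fibroblasts. Of 10 measured markers of valve interstitial fibroblasts 9 had a group mean of at least 5 in every group, and of 8 cardiac muscle markers at most 1 did. Of 9 endothelial markers 3 did in each stretched group and 5 in each static group. For 4 smooth muscle markers these counts were 4 and 3. Arrays of stretched tissue differed from static ones in a control for RNA quality, the gap by which control probe sets for the 3′ end of GAPDH and EF1A read above those for the 5′ end, which is wider in degraded or shortened RNA. This gap averaged 2.64 ± 1.07 log2 in stretched tissue with the agents and 0.82 ± 0.11 in static tissue with the agents (SD, n = 6 each; exact permutation test, two-sided p = 0.00216, the smallest that 6 against 6 arrays allow, adjusted p = 0.00433 over 4 tests). Without agents it averaged 2.09 ± 0.71 in stretched and 0.77 ± 0.14 in static tissue, with the same exact p and adjusted p. It exceeded 2.5 on 3 arrays, replicates 5 and 6 of stretched tissue with the agents (4.66 and 2.98) and replicate 6 of stretched tissue without agents (3.06). Members are therefore given with this gap as a covariate, and without those 3 arrays, wherever a value changes by much.

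CRY2, a cryptochrome that represses CLOCK and BMAL1, was higher in stretched tissue under both conditions. In stretched tissue with the agents its arrays ran from 8.34 to 9.39 with a median of 8.65, and in static tissue with the agents from 6.26 to 7.06 with a median of 6.60. The groups did not overlap. Their means were 8.74 ± 0.43 and 6.67 ± 0.30, a change of 2.07 (SE 0.25, limma adjusted p = 1.56e-06) or 4.20-fold. Without agents the stretched arrays ran from 7.25 to 8.74 with a median of 7.79, and the static arrays from 6.32 to 7.36 with a median of 6.63. Of the 6 stretched arrays 4 lay above every static array, while replicates 1 and 6, at 7.25 and 7.36, reached into the static range, whose highest array was replicate 3. The means were 7.89 ± 0.60 and 6.70 ± 0.35, a change of 1.19 (SE 0.25, limma adjusted p = 0.000714) or 2.28-fold.

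Both CRY2 calls held under all 33 alternatives run for each of them. The adjusted p reached at most 0.000123 with the agents and 0.00857 without them. With the 3′ to 5′ gap as a covariate the changes were 2.39 (adjusted p = 0.000123) and 1.42 (adjusted p = 0.00238). The gap did not overlap between stretched and static arrays. It was at least 1.85 against at most 0.97 with the agents, and at least 0.98 against at most 0.91 without them. Gap and stretch therefore cannot be told apart by this fit. On the 3 arrays of widest gap CRY2 read 8.38, 8.40 and 7.36, all within the range of the other stretched arrays of their groups. All 3 lay below the median of their group, 8.65 with the agents and 7.79 without them. Since a leaflet holds several kinds of cells, a higher level per cell and a larger share of cells with a high level cannot be told apart here.

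**Figure D1:**
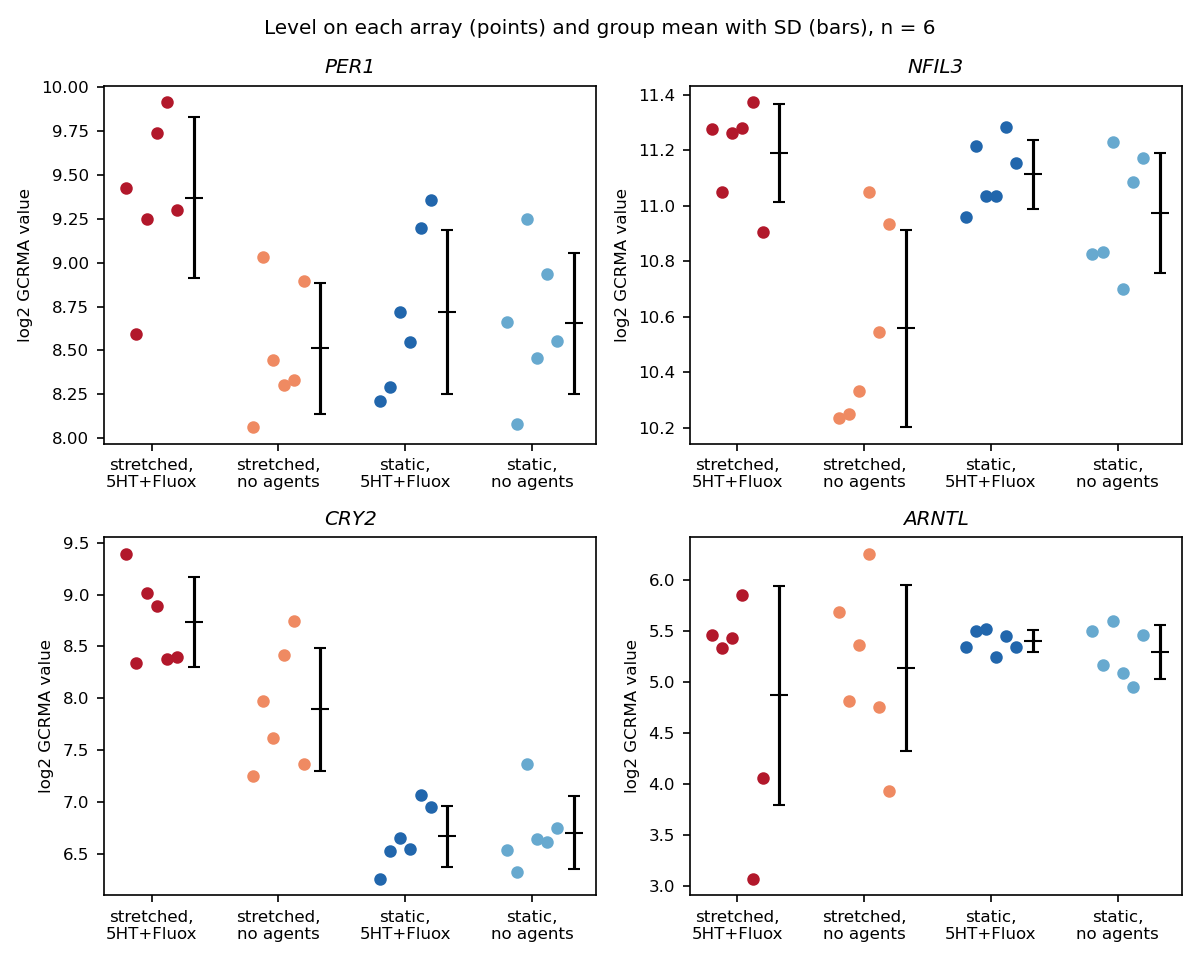
Level of PER1, NFIL3, CRY2 and ARNTL (log2 GCRMA value, vertical axis, own scale in each panel) on every array of the 4 groups, as points, with the group mean and SD beside them (n = 6). CRY2 is high in both stretched groups, PER1 is highest in stretched tissue with 5HT plus Fluox, NFIL3 is lowest in stretched tissue without agents, and ARNTL scatters from 3.07 to 6.25 in stretched tissue while its static arrays lie between 4.95 and 5.59.

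PER1, a period gene and a partner of the cryptochromes, was higher with stretch in tissue that received the agents. Its brighter probe set ran from 8.59 to 9.91 with a median of 9.36 in stretched tissue with the agents, and from 8.21 to 9.35 with a median of 8.63 in static tissue with the agents. Of the 6 stretched arrays 3 lay above every static array, and the lowest, replicate 2, lay near the static median. The means were 9.37 ± 0.46 and 8.72 ± 0.47, a change of 0.65 (SE 0.24, limma adjusted p = 0.0296) or 1.57-fold.

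Without agents PER1 ran from 8.06 to 9.03 with a median of 8.39 in stretched tissue, and from 8.08 to 9.25 with a median of 8.61 in static tissue. These ranges nearly coincided. The means were 8.51 ± 0.37 and 8.65 ± 0.40, a change of -0.14 (SE 0.24, limma adjusted p = 0.615). The direction of this small change depended on the scaling, at 0.09 after quantile normalization and 0.08 after arrays were centred on the median of their brighter probe sets.

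The PER1 call in tissue with the agents lay near the threshold. It was lost with the 3′ to 5′ gap as a covariate (0.15, adjusted p = 0.852) and without the 3 arrays of widest gap (0.53, adjusted p = 0.109). It was also lost when replicate 4 or 5 of stretched tissue with the agents (adjusted p = 0.0639 and 0.0765), or replicate 1, 2 or 4 of static tissue with the agents (adjusted p = 0.0747, 0.071 and 0.0556), was left out. With each array left out in turn the change ran from 0.54 to 0.81, so its direction held. The array with the widest gap was also the one with the highest PER1 value, 9.91. The other PER1 probe set read between 1.84 and 2.06 on all 24 arrays. This level is at the bottom of the scale, and only 4.69% of probe sets had a lower mean. Its fitted changes with stretch were 0.01 with the agents and -0.04 without them. At this level it cannot serve as a second reading of the gene.

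NFIL3, also called E4BP4, is a repressor that competes with DBP for the same sites in output genes. It was lowest in stretched tissue without agents. There its arrays ran from 10.24 to 11.05 with a median of 10.44, and in static tissue without agents from 10.70 to 11.23 with a median of 10.96. Of the 6 stretched arrays 4 lay below every static array, while replicates 4 and 6, at 11.05 and 10.93, lay among the static ones. The means were 10.56 ± 0.36 and 10.97 ± 0.22, a change of -0.42 (SE 0.14, limma adjusted p = 0.0157) or 1.33-fold lower.

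With the agents NFIL3 ran from 10.90 to 11.37 with a median of 11.27 in stretched tissue, and from 10.96 to 11.28 with a median of 11.09 in static tissue. The groups overlapped almost wholly. The means were 11.19 ± 0.18 and 11.11 ± 0.13, a change of 0.08 (SE 0.14, limma adjusted p = 0.635). The size and the call of the fall without agents depended on the scaling, while its direction did not. Over all probe sets the median change was 0.30 log2 after such centring, against 0.08 before it, and the NFIL3 call ended (-0.19, adjusted p = 0.282). It also ended after quantile normalization (-0.24, adjusted p = 0.247). In a fit of these 2 groups alone the change stayed at -0.42 with a wider error (SE 0.17, adjusted p = 0.0695). That fit called 35.2% of all probe sets. Of 33 alternatives these 3 ended the call, and the other 30 kept it. With the 3′ to 5′ gap as a covariate the call held (-0.49, adjusted p = 0.0467).

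ARNTL, the gene of BMAL1, passed the test in neither stretch comparison. With the agents its stretched arrays ran from 3.07 to 5.85 with a median of 5.38, and the static ones from 5.24 to 5.51 with a median of 5.39. The means were 4.86 ± 1.07 and 5.40 ± 0.11, a change of -0.53 (SE 0.39, limma adjusted p = 0.244). Without agents its stretched arrays ran from 3.93 to 6.25 with a median of 5.09, and the static ones from 4.95 to 5.59 with a median of 5.31. The means were 5.13 ± 0.81 and 5.29 ± 0.26, a change of -0.16 (SE 0.39, limma adjusted p = 0.729). The medians with the agents were nearly equal, and the stretched groups differed from the static ones in their spread.

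The low ARNTL values stood on the arrays of widest 3′ to 5′ gap. Replicates 5 and 6 of stretched tissue with the agents read 3.07 and 4.06, and replicate 6 of stretched tissue without agents read 3.93. On the other stretched arrays ARNTL lay between 5.33 and 5.85 with the agents and between 4.75 and 6.25 without them. Without the 3 arrays of widest gap the changes turned to 0.12 with the agents and 0.08 without them, and neither passed the test. With the gap as a covariate they turned to 1.17 with the agents (adjusted p = 0.00678) and 1.07 without them (adjusted p = 0.0031), past the threshold in the other direction. Gap and stretch moved together over the arrays and cannot be told apart.

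**Figure D2:**
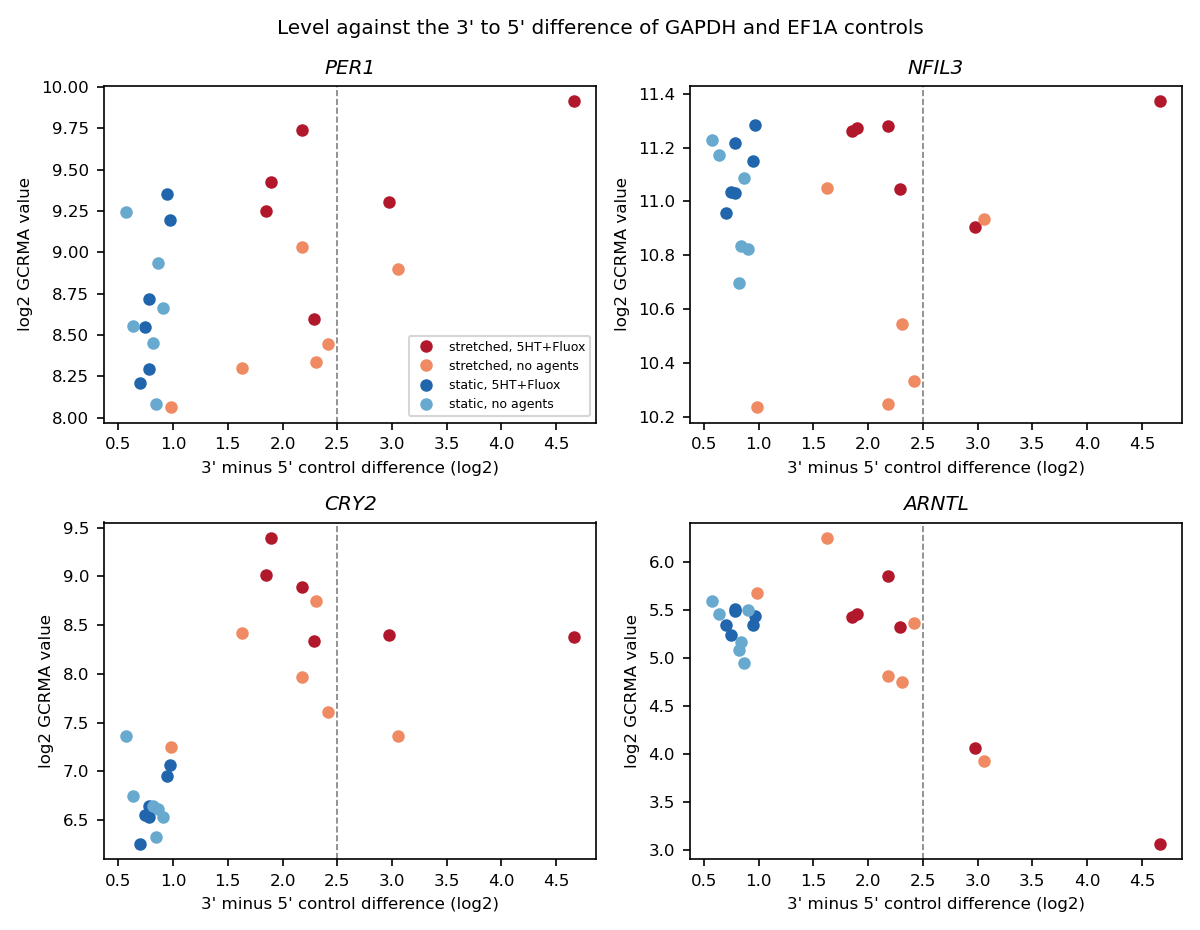
Level of each clock gene (log2 GCRMA value, vertical axis) against the 3′ to 5′ gap of the GAPDH and EF1A control probe sets (log2, horizontal axis), with 1 point per array coloured by group and a dashed line at 2.5. The 3 arrays to the right of the line hold the 3 lowest ARNTL values (3.07, 3.93 and 4.06), and the one at 4.66 also holds the highest PER1 and NFIL3 values (9.91 and 11.37).

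In each stretch comparison 2 of the 5 probe sets were called. With the agents these were PER1 and CRY2, both higher, in a comparison in which limma called 52.2% of all probe sets (28.3% higher and 23.9% lower). Without agents they were CRY2, higher, and NFIL3, lower, where 52.5% of all probe sets were called (29.4% higher and 23.1% lower). The share of clock probe sets called was thus not above that of all probe sets. The authors' deposited table holds the same calls for these genes. CRY2 in the authors' deposited table was 4.20-fold higher with the agents and 2.28-fold higher without them (the authors' adjusted p = 3.65e-06 and 0.00102). PER1 was 1.57-fold higher with the agents in the authors' deposited table (adjusted p = 0.0318), and the signed fold change of NFIL3 without agents was -1.33 there (adjusted p = 0.0146).

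The agents were compared with no agents within each mechanical condition. In static tissue none of the clock genes differed past the test. The changes were 0.14 for NFIL3, 0.11 for ARNTL, 0.07 for PER1 and -0.04 for CRY2, each with an adjusted p of 0.9999. Of the 5 probe sets 0 were called by limma, and 0 had an unadjusted p under 0.05, in a comparison in which 0.00417% of all probe sets were called and 1.76% had such an unadjusted p. The 95% intervals of the changes were narrowest for NFIL3, from -0.14 to 0.42, and widest for ARNTL, from -0.70 to 0.91. These intervals are not adjusted for the number of probe sets. With 6 arrays a group, changes within them were not excluded, and they are not limits of what the adjusted test could detect.

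In stretched tissue 3 of the 4 genes had higher means with the agents, but none passed the adjusted test. NFIL3 averaged 11.19 ± 0.18 with the agents and 10.56 ± 0.36 without them, a difference of 0.63 (SE 0.14, limma adjusted p = 0.0763), with 4 of 6 arrays above every array without agents. PER1 averaged 9.37 ± 0.46 with the agents and 8.51 ± 0.37 without them, a difference of 0.86 (SE 0.24, limma adjusted p = 0.121), with 5 of 6 arrays above every array without agents. CRY2 averaged 8.74 ± 0.43 with the agents and 7.89 ± 0.60 without them, a difference of 0.84 (SE 0.25, limma adjusted p = 0.124), with 3 of 6 such arrays. For all 3 genes the groups overlapped. ARNTL differed by -0.27 (SE 0.39, limma adjusted p = 0.84).

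Limma called 0 of the 5 probe sets in this comparison, while 3 had an unadjusted p under 0.05. Of all probe sets 0.0583% were called and 14.8% had such an unadjusted p. Of 33 alternatives run for each of these genes, 27 did not call NFIL3, and 31 did not call PER1 or CRY2 in either case. In a fit of these 2 groups alone the limma adjusted p was 0.572 for each of NFIL3, PER1 and CRY2. The calls made under the remaining alternatives were the following. With array weights, which count variable arrays less and called 15.6% of all probe sets here, NFIL3 (0.79, adjusted p = 0.000996) and CRY2 (1.08, adjusted p = 0.00503) were called. Without the 3 arrays of widest gap, where 1.34% of all probe sets were called, NFIL3 was (0.73, adjusted p = 0.0338). NFIL3 was also called when replicate 4, 5 or 6 of stretched tissue without agents, or replicate 2 of stretched tissue with the agents, was left out (adjusted p = 0.0137, 0.0268, 0.01 and 0.0356). The same held for CRY2 without replicate 5 of the stretched tissue without agents (adjusted p = 0.0268). PER1 was called without replicate 6 of that group (adjusted p = 0.0327) or without replicate 2 of stretched tissue with the agents (adjusted p = 0.0468). Leaving out 1 array raised the share of all probe sets called to at most 6.86%, without replicate 6 of stretched tissue without agents.

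The interaction asks whether the agents changed a gene differently in stretched than in static tissue. It was 0.88 for CRY2 (SE 0.35), 0.79 for PER1 (SE 0.34), 0.49 for NFIL3 (SE 0.19) and -0.37 for ARNTL (SE 0.55). None passed the test (limma adjusted p = 0.641, 0.647, 0.641 and 0.953 in that order). Limma called 0 of the 5 probe sets and 0% of all probe sets, and 3 of the 5 had an unadjusted p under 0.05, against 7.46% of all. The stretch calls of PER1 and NFIL3, each made under one condition and not the other, are therefore not shown to differ between tissue with and without the agents. With array weights, which called 9.06% of all probe sets for the interaction, NFIL3 (0.73, adjusted p = 0.0112) and CRY2 (1.20, adjusted p = 0.0138) passed.

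**Figure D3:**
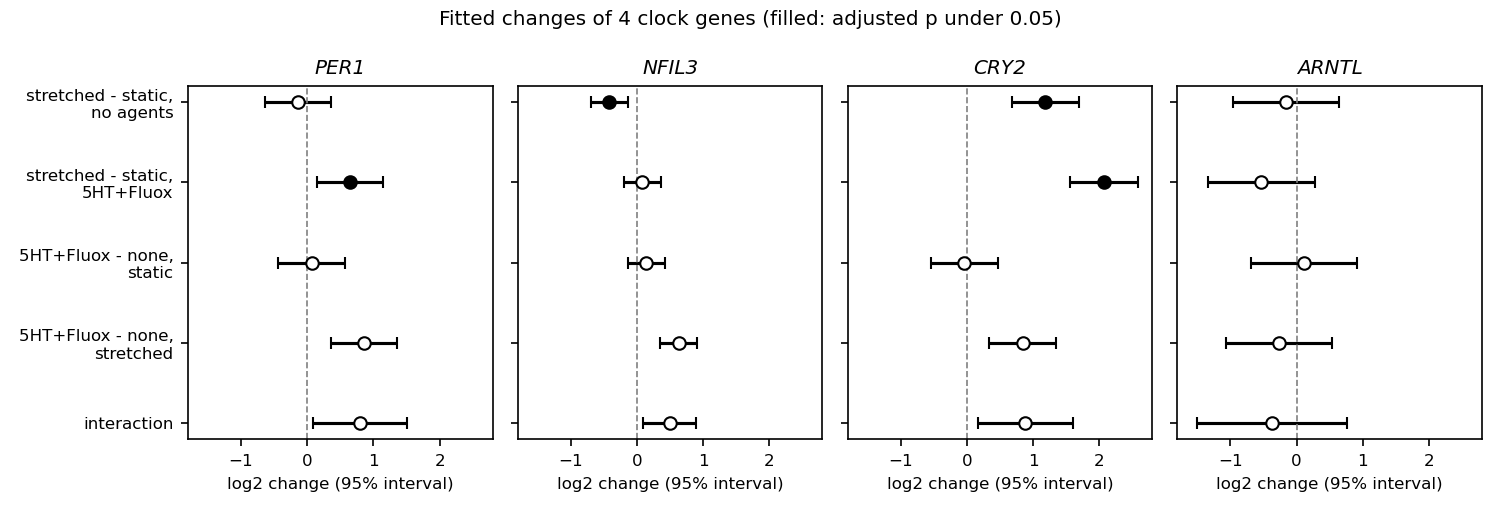
Fitted log2 changes (points) with 95% intervals (bars) of PER1, NFIL3, CRY2 and ARNTL in the 5 comparisons, with the dashed line at no change and filled points for an adjusted p under 0.05. Filled points stand in the stretch comparisons only, CRY2 in both of them, PER1 with the agents and NFIL3 without them. The intervals of PER1, NFIL3 and CRY2 for the agents in stretched tissue lie above 0 although none passed the adjusted test.

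The order of the group levels differed from gene to gene. For CRY2 it was stretched with the agents, stretched without, static without and static with them. The step between both stretched groups and the step between both static groups did not pass the test, and the step between stretched and static did. For PER1 it was stretched with the agents, static with, static without and stretched without them, and only the first of these 3 steps passed. Stretched tissue with the agents was also above static tissue without agents in PER1 (0.72, SE 0.24, limma adjusted p = 0.0155), in a comparison that called 61.8% of all probe sets. The covariate ended that call too (0.20, adjusted p = 0.717), as did leaving out the 3 arrays of widest gap (adjusted p = 0.0646).

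For NFIL3 the order was stretched with the agents, static with, static without and stretched without them, and only the last step passed. Static tissue with the agents was above stretched tissue without agents in NFIL3 (0.56, SE 0.14, limma adjusted p = 0.00346), where 39.5% of all probe sets were called, and quantile normalization ended that call (adjusted p = 0.0573). For ARNTL it was static with the agents, static without, stretched without and stretched with them, and no step passed.

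Genes with a like pattern were sought over the 24 arrays. Each probe set was centred on its own mean, and likeness was the root mean square (RMS) difference in log2 from the clock gene, among 6145 probe sets of other genes with a single symbol and a group mean of at least 5. Closest to CRY2 were LAMB2, a laminin chain of basement membranes (RMS 0.304), CPEB2, a regulator of translation (RMS 0.353), the immediate-early gene IER2 (RMS 0.364), the transcription factor FOXO1 (RMS 0.394) and LOC100514494 (RMS 0.401), against a median of 1.31 over all 6145. Closest to NFIL3 were the kinase CLK1 (RMS 0.229), PRKAR1A, a regulatory subunit of protein kinase A (RMS 0.233), CCPG1 (RMS 0.233), ALDH18A1 (RMS 0.240) and SUFU (RMS 0.249), with a median of 0.824. The RMS also depends on how much a gene itself varies. Over the 24 arrays the SD was 0.332 for NFIL3, 0.522 for PER1, 0.672 for ARNTL and 0.974 for CRY2. A probe set that did not vary at all would have an RMS close to that SD. The RMS values describe likeness of level over the same arrays and are not tests.

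Closest to PER1 were BBS4 and AKAP13, an anchoring protein of protein kinase A (RMS 0.387 each). PTP4A2 (RMS 0.407), TMEM59 (RMS 0.407) and the natriuretic peptide receptor NPR2 (RMS 0.409) followed, with a median of 0.960. Closest to ARNTL were the ubiquitin ligase PELI1 (RMS 0.231), the calcium pump ATP2A2 (RMS 0.268), PDLIM5 (RMS 0.294), the growth factor VEGFA (RMS 0.322) and CDV3 (RMS 0.340), with a median of 0.912. The arrays share the 3′ to 5′ gap, and its part in these likenesses was not tested.

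**Figure D4:**
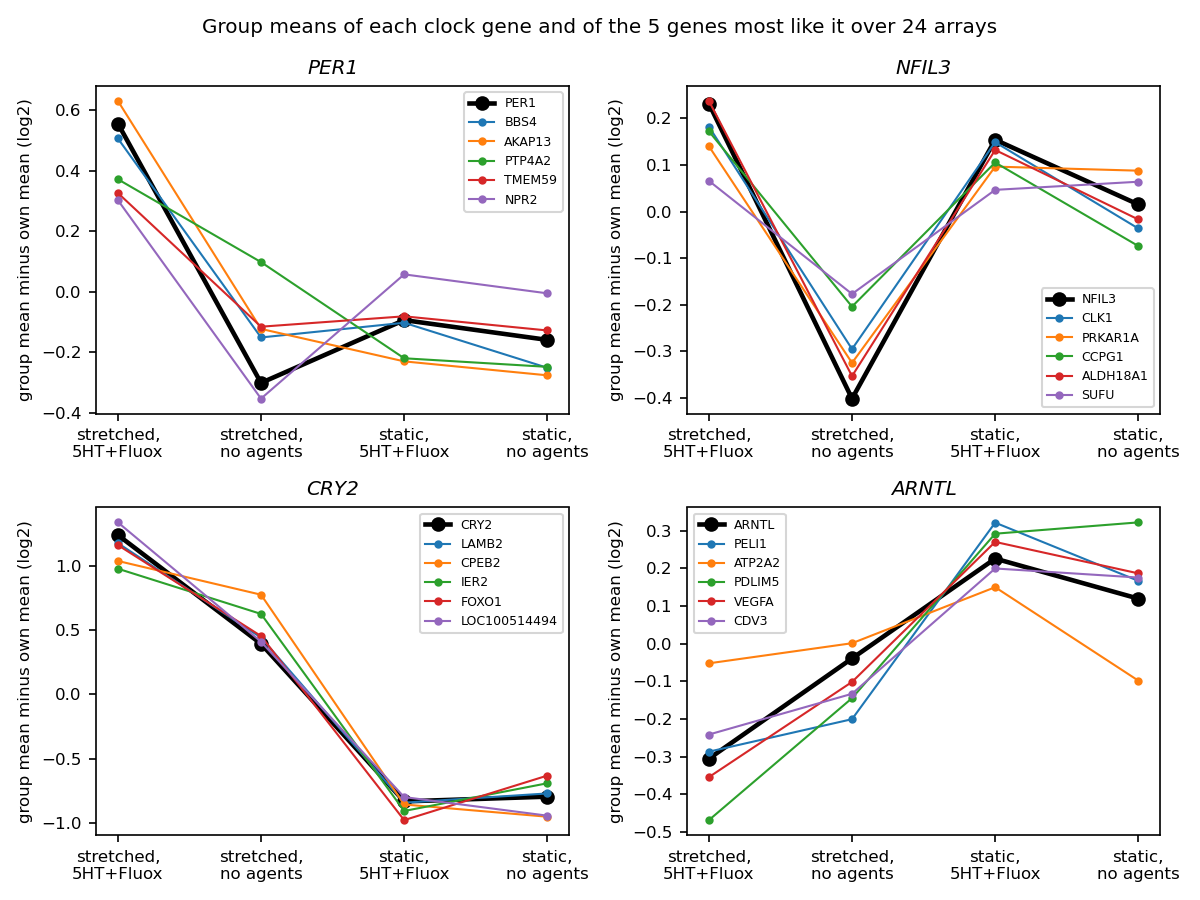
Group means of each clock gene (black) and of the 5 genes most like it over 24 arrays (colours), each drawn as the difference from its own mean (log2, vertical axis, own scale in each panel) in the 4 groups. The CRY2 companions are high in both stretched groups, and the NFIL3 companions have their lowest mean in stretched tissue without agents.

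Other genes of the clock's loops and of the enzymes that modify its proteins were counted from a list of 32, of which 15 were measured. With the agents 9 were lower and 1 higher in stretched tissue, with a median change of -0.90, and without agents 7 were lower and 2 higher, with a median of -0.57. Over all probe sets the median was 0.07 with the agents, where 23.9% were lower and 28.3% higher, and 0.08 without them, where 23.1% were lower and 29.4% higher. These shares are the background of the counts of the other lists too. BHLHE40, a repressor that acts on the same promoter elements as CLOCK and BMAL1, averaged 4.89 in stretched and 7.19 in static tissue with the agents (-2.30, SE 0.56, limma adjusted p = 0.00216), and 3.87 in stretched and 7.20 in static tissue without them (-3.33, SE 0.56, limma adjusted p = 9.83e-05). HDAC3, the deacetylase used by the REV-ERB repressors, changed by -1.33 with the agents and -1.50 without them. RORA, a nuclear receptor that activates ARNTL, was lower without agents (-0.75, SE 0.24, limma adjusted p = 0.0146), and with them its change of -0.13 did not pass.

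Several modifiers of the period proteins were among the lower genes. CSNK1D, the casein kinase that marks them for breakdown, changed by -3.22 with the agents (SE 0.57, limma adjusted p = 0.000139) and -1.92 without them. All 3 measured catalytic subunits of protein phosphatase 1, which removes such marks, were lower under both conditions. PPP1CA changed by -2.46 with the agents and -2.07 without them, PPP1CB by -0.70 and -0.55, and PPP1CC by -0.94 and -0.70. TIPIN, a partner of the TIMELESS protein, changed by -1.30 with the agents (SE 0.26, limma adjusted p = 0.000523). PRKAA1, a catalytic subunit of the energy sensor AMPK, was higher by 1.37 with the agents and 1.19 without them. The other higher call, PPARGC1A without agents (0.33), had no group mean of 5. RORA, PPP1CC, PRKAA1 and PPARGC1A were picked for mention after their values were seen.

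With the 3′ to 5′ gap as a covariate 0 of these 15 were lower and 0 higher with the agents (median -0.47), and 3 were lower and 0 higher without them (median -0.39). The covariate lowered the share of all probe sets called to 15.5% with the agents and 21.6% without them. Those shares are also the background of the covariate counts of the other lists. Every call of this list with the agents was thus lost, BHLHE40 and HDAC3 included, and PPP1CB was not called without them either (-0.38, adjusted p = 0.0704). Without the 3 arrays of widest gap 9 were lower and 2 higher with the agents, and 7 lower and 2 higher without them. In that setting 48.2% of all probe sets were called with the agents and 46.7% without them. The second probe sets of BHLHE40 and PPP1CA and both others of CSNK1D and HDAC3 had no group mean of 5. The dim one of BHLHE40, with a highest group mean of 2.28, was called higher by 0.11 without agents (adjusted p = 0.0266).

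Output genes of the clock were counted from a list of 24, of which 18 were measured. With the agents 7 were lower and 3 higher in stretched tissue (median -0.64), and without agents 11 were lower and 4 higher (median -0.97). Called in either direction were 10 of 18 with the agents and 15 of 18 without them, against 52.2% and 52.5% of all probe sets. TSC22D3, the leucine zipper protein induced by glucocorticoids, averaged 12.69 in stretched and 8.20 in static tissue with the agents (4.49, SE 0.42, limma adjusted p = 8.38e-08), and 11.92 and 8.20 without them (3.72, SE 0.42, limma adjusted p = 1.22e-06). The stretched and static arrays did not overlap in either case. PDK4, which holds back glucose oxidation, was higher by 3.47 with the agents and 2.51 without them. The nuclear receptor PPARD changed by -1.28 and -1.73, and LPIN1, an enzyme of lipid synthesis, by -1.70 and -2.02. The other probe sets of PPARD read 0.28 and 0.09 with the agents and 0.21 and 0.08 without them. These and the second probe set of TSC22D3 had no group mean of 5 and did not pass the test. The second ones of PDK4 and LPIN1 were called in the same direction as the first under both conditions. DBP, the activator that competes with NFIL3, had group means between 2.15 and 2.52, at the bottom of the scale.

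The thrombomodulin gene THBD, an output gene that is also made by endothelial cells, changed by -4.25 with the agents and -3.60 without them (SE 0.71 each, limma adjusted p = 8.17e-05 and 0.000526). Of 9 measured endothelial markers 5 were lower with the agents and 8 without them, and none higher. Their mean log2 level ran from 4.11 to 4.54 over stretched and from 5.57 to 6.51 over static arrays with the agents, and from 3.93 to 4.29 over stretched and 4.81 to 6.29 over static arrays without them. VWF, which is on the output list too, KDR, TIE1 and NOS3 had no group mean of 5 in any group. Of 10 interstitial fibroblast markers 7 were higher and 2 lower in each comparison, and their mean was 10.97 in stretched and 9.21 in static tissue with the agents, and 10.56 in stretched and 9.35 in static tissue without them. Of 4 smooth muscle markers 3 were higher and 0 lower in each, with a mean of 9.10 in stretched and 6.50 in static tissue with the agents, and 8.67 in stretched and 6.79 in static tissue without them. Of 7 macrophage and leukocyte markers 3 were lower in each, and 1 was higher with the agents. The part of these markers in the changes of clock and output genes was not tested. With the covariate the output genes had 3 lower and 1 higher with the agents, and 7 lower and 2 higher without them, and PDK4 lost its call under both conditions.

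**Figure D5:**
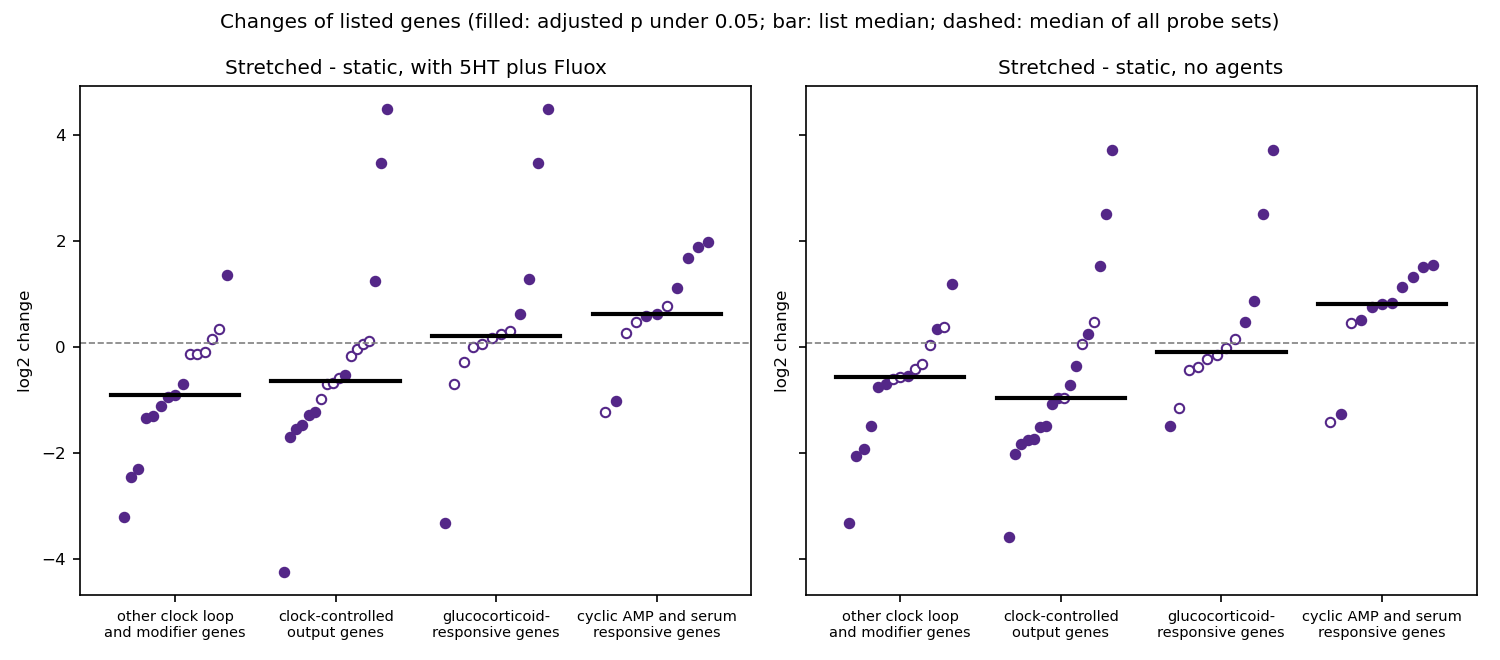
Log2 changes with stretch of the measured genes of 4 lists, with the agents (left) and without them (right), 1 point per gene, filled where the adjusted p was under 0.05. Bars mark the list medians and the dashed line the median of all probe sets (0.07 and 0.08). Loop, modifier and output genes lie mostly below the dashed line and the cyclic AMP and serum responsive genes mostly above it, with TSC22D3 and PDK4 the highest points of both lists that hold them.

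Genes that answer the signals known to reset cultured clocks were counted from a list for cyclic AMP and serum and a list for glucocorticoids. Of 11 measured genes of the first list 6 were higher and 1 lower with the agents (median 0.61), and 8 were higher and 1 lower without them (median 0.81). Of all probe sets 28.3% were higher with the agents and 29.4% without them. The immediate-early gene IER2 was higher by 1.88 with the agents (SE 0.16, limma adjusted p = 2.6e-08) and 1.32 without them. The nuclear receptor NR4A2 was higher by 1.98 and 1.55, FOS by 1.67 and 1.50, and CREM, a modulator of cyclic AMP response genes, by 0.61 and 0.76. For IER2 and NR4A2 stretched and static arrays did not overlap under either condition. For FOS 6 of 6 stretched arrays with the agents and 5 of 6 without them exceeded every static array, and for CREM 3 of 6 and 6 of 6 did. With the covariate 5 were higher and 0 lower with the agents, and 7 higher and 0 lower without them. EGR1, an immediate-early transcription factor, was higher by 0.58 with the agents (SE 0.14, limma adjusted p = 0.00193) and 0.50 without them, and with the agents the covariate ended its call (0.53, adjusted p = 0.0961). The other 3 probe sets of CREM and 1 of the others of EGR1 did not pass the test. Those of CREM differed in direction, at -0.32, -0.55 and 0.32 with the agents and -0.02, 0.42 and 0.13 without them.

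Of 12 measured glucocorticoid-responsive genes 4 were higher and 1 lower under each condition, with medians of 0.21 with the agents and -0.09 without them. These 5 of 12 are no larger a share than that of all probe sets called, 52.2% and 52.5%. Besides TSC22D3 and PDK4, which are on both lists, SGK1, a kinase that regulates ion transport, was higher by 1.28 with the agents (SE 0.26, limma adjusted p = 0.000478) and 0.88 without them. KLF9, also on both lists, was lower without agents (-1.50, SE 0.33, limma adjusted p = 0.00139), and the metallothionein MT1A was lower with them (-3.33, SE 1.03, limma adjusted p = 0.0113). The second KLF9 probe set had no group mean of 5 and did not pass the test (0.06 without agents). FKBP5, a chaperone of the glucocorticoid receptor, changed by -0.01 and -0.15, and NR3C1, the receptor itself, by 0.31 and 0.15, and neither passed the test. They were picked for mention after their values were seen. With the covariate 2 were higher and 1 lower with the agents, and 2 higher and 3 lower without them, and MT1A lost its call. In none of the 4 lists was a gene called by limma for the agents in static or stretched tissue or for the interaction.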

How the data were processed

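Expression was read on 24 Affymetrix porcine arrays, 1 for each RNA sample of 6 ug, and samples were grouped by their titles. The authors deposited GCRMA probe set values on the log2 scale, for which the submitters' processing notes name GCRMA and Partek without versions. They were used as deposited. The authors' deposited table of an analysis of variance holds p-values, unadjusted and adjusted, and signed linear fold changes, and is quoted only as theirs. Genome build and batches are not given in the sources used here, so no coordinates are given.

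Of 24123 probe sets 124 controls were left out. In the platform annotation 10069 of the remaining 23999 carried 1 symbol, 198 several and 13732 none. Limma 3.58.1 in R 4.3.3 fitted 1 mean per group over all arrays (eBayes defaults, two-sided, Benjamini-Hochberg over 23999 probe sets). The fit was also run on simulated data with independent noise. These held no 3′ to 5′ gap and no shared animals, so the run does not test the fit under either. The clock genes, lists and tests were chosen with earlier results of these data known. From each list the 4 called genes of smallest p with a group mean of at least 5 were named in each pairwise comparison, using the brightest probe set of a gene, and the 5 genes of most alike pattern for each clock gene. Because animals may be shared, p-values measure the spread between samples. No array was a copy of another. Alternatives were the replicate number as a block, trend and robust variances, leaving out dim probe sets (mean under 4), quantile normalization, centring on brighter probe sets, fits of 2 groups, array weights, the 3′ to 5′ gap as a covariate, leaving out arrays with a gap over 2.5, and leaving out each array.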

Additional observations from a re-analysis of the deposited data

How the results depend on the processing

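The counts of clock probe sets called (2 in each stretch comparison, 0 for the agents and the interaction) moved as follows. In the stretch comparison without agents the count was 1 in a fit of these 2 groups alone, where 35.2% of all probe sets were called. It was 3 with the covariate, where ARNTL was added and 21.6% of all probe sets were called. In the stretch comparison with the agents it was 1 without the arrays of wide 3′ to 5′ gap, where 48.2% of all probe sets were called. It was 1 to 2 when each array was left out in turn, and 3 after centring, which added the dim PER1 probe set. Centring moved the median change over all probe sets there from 0.07 to 0.29, and 70.4% of them were called. With the covariate the count was 2, CRY2 and ARNTL, where 15.5% of all probe sets were called. For the agents in stretched tissue it was 2 with array weights, 1 without the wide arrays, and 0 to 2 when each array was left out, and for the interaction 2 with array weights. These settings called more of all probe sets as well (15.6%, 1.34%, up to 6.86%, and 9.06% in that order). The replicate block changed no call of a clock gene: the counts stayed 2, 2, 0, 0 and 0, and PER1 with stretch and the agents had a limma adjusted p of 0.0258. Same-numbered arrays deviated together (correlation over 0.1) in 3, 1, 5 and 4 of 6 pairs of the 4 pairwise comparisons, so not in every pair, and the numbers were not taken to pair the samples. In static tissue 5 of the pairs had correlations of 0.33 to 0.59.

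Changes that turned sign were those of ARNTL and small ones. ARNTL with stretch read 1.17 with and 1.07 without the agents under the covariate, 0.12 and 0.0818 in the same order without the wide arrays, and without agents 0.0657 after centring, 0.064 with array weights and -0.383 to 0.0818 with each array left out. For the agents in stretched tissue it read 0.245 with the covariate, 0.144 without the wide arrays and -0.507 to 0.0936 with each array left out, and for the interaction 0.0955 and 0.0382 under the first 2 of these. Stretched tissue with the agents against static tissue without gave 1.32 and 0.226, and static with against stretched without gave -0.923 with the covariate. PER1 with stretch and no agents read 0.0871 after quantile normalization and 0.0821 after centring. For the agents in static tissue PER1 read -0.0424 with array weights and -0.0613 to 0.184 with each array left out. CRY2 there read 0.00701 after quantile normalization, 0.00145 after centring and -0.116 to 0.095 with each array left out. NFIL3 with stretch and the agents read -0.0298 with the covariate. The cause was not tested.

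Over all probe sets, 12527 calls for stretch with the agents became 3721 with the covariate and 16897 after centring. Without agents 12600 calls became 5176 with the covariate, 15989 after centring, and 8121 without dim probe sets, where fewer were tested and the share called was 58.3% against 52.5%. The 14 calls for the agents in stretched tissue ranged from 0 to 3733, and the 0 for the interaction reached 2174 with array weights. Array signal limits the second PER1 probe set and DBP, which lay at the bottom of the scale.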
